A study of Homo sapiens with 2 samples.

Results

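Genes that drive or restrain the cell cycle were examined for binding of LDB1, a co-regulator that does not itself contact DNA and is carried to it by GATA factors, TAL1 and LMO2. The 10 genes were MYC, the D-type cyclins CCND1, CCND2 and CCND3, their kinase partner CDK6, the kinase inhibitors CDKN1A, CDKN1B and CDKN2C, the factor E2F2 and the kinase PIM1. Each gene was taken with its GENCODE release 44 body extended by 50 kb on each side, and the deposited LDB1 peaks overlapping these windows were collected. This gave 34 of 11046 peaks, at 6 of the 10 genes.

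The peaks came from CUT&Tag, a method that tethers a transposase to an antibody and sequences the fragments it cuts around the bound protein. The cells were NB4, a line from human acute promyelocytic leukemia. The series held 2 libraries, 1 made with an LDB1 antibody on cells labelled as LDB1 overexpression and 1 made with IgG on cells labelled untreated, so that antibody and treatment cannot be told apart. Neither group had a replicate, and the peak list analysed was that of the LDB1 library, so no test between groups was made and the intervals given are 95% intervals of counting error. The list carried a position and a length for each peak but no height, and read depth is unknown. Peak lengths ranged from 229 to 4856 bp. In the same kind of window 9 of 10 red cell genes (59.6 to 98.2%) had a peak, SLC4A1 with 17. So had 8 of 10 promyelocyte genes (49.0 to 94.3%), CEBPE with 17 and none at MPO. The share of all protein-coding genes was 44.8%, and both lists were chosen with earlier results of these data known.

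In a dividing cell, mitogens and MYC raise the D-type cyclins, which join CDK4 or CDK6 and phosphorylate RB, releasing E2F factors that switch on genes for DNA replication. CDKN2C, of the INK4 class, binds CDK4 and CDK6 directly, while CDKN1A and CDKN1B, of the CIP/KIP class, bind cyclin and kinase together. PIM kinases are serine/threonine kinases induced by cytokine signals that act on, among others, cell cycle inhibitors and survival proteins. In blood cells CDK6 and CCND3 are a prominent pair, and CCND3 and PIM1 are known for their part in leukemia and lymphoma.

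The composite element of the LDB1 complex is an E-box remnant (CTG), a spacer of 7 or 8 bases and a GATA motif (AGATAA or AGATAG, and TGATAA or TGATAG). Of the 34 peaks 2 held it on either strand, 1 at CCND3 and 1 at CDKN2C. Binding through these 2 was not tested, and that of CCND3 is shown as an example. It is written 5′ to 3′ on the minus strand of hg38, with the CTG and the GATA motif in capitals and a spacer of 8 bases between them. It lies in an intron of the long CCND3 transcripts at chr6:42028357-42028453, 131 bp from the midpoint of its peak.
CCND3 peak 8: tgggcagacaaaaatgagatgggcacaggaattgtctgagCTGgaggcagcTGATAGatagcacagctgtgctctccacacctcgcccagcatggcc

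The central 200 bp of 5 further peaks follow, from the plus strand of hg38, with GATA motifs and RUNX motifs (TGNGGT) in capitals, both as read on either strand. The longest peaks of CCND3 (chr6:42030368-42030567), PIM1 (chr6:37183229-37183428) and CCND1 (chr11:69700691-69700890) show what the largest region of each gene is made of. CCND3 peak 14 (chr6:41957248-41957447) and CDKN2C peak 1 (chr1:50976816-50977015) were added after their values were seen, the former for its 3 GATA motifs in 200 bp and the latter as the closest peak to an inhibitor gene. None of the 5 windows overlaps an annotated UTR.
CCND3 peak 7: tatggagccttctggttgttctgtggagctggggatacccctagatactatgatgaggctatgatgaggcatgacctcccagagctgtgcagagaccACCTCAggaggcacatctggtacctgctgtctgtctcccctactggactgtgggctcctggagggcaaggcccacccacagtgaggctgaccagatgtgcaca
PIM1 peak 3: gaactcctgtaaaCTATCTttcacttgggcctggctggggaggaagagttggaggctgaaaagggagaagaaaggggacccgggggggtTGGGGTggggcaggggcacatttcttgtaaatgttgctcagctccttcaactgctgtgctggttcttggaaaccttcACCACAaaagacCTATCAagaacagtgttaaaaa
CCND1 peak 1: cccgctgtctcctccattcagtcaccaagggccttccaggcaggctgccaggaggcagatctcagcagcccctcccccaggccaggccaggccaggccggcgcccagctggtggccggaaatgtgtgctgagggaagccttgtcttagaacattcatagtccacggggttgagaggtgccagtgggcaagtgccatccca
CCND3 peak 14: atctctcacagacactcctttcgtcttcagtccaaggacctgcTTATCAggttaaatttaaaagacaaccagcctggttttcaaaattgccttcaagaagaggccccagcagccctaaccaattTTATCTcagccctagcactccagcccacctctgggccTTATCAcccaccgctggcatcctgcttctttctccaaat
CDKN2C peak 1: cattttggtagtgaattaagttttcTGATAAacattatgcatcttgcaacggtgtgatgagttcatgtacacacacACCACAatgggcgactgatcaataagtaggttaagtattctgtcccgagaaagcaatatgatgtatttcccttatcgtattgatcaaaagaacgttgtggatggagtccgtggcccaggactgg

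The 34 peaks were unevenly spread over the 10 genes. CCND3 had 18 and PIM1 10, so that 28 of 34 (82.4%, 66.5 to 91.7%) lay at these genes. MYC and CDKN2C had 2 each, CCND1 and CCND2 had 1 each, and CDK6, CDKN1A, CDKN1B and E2F2 had none. The share of genes with a peak, 60% (31.3 to 83.2%), was near that of all 20033 protein-coding genes in the same windows, 44.8%, so having a peak did not set the 10 genes apart. At least as many peaks as at PIM1 were found at 201 protein-coding genes, PIM1 included, or 1.00%, and at least as many as at CCND3 at 19 genes, CCND3 included, or 0.0948%. Windows of neighbouring genes can overlap, so these are counts of genes and not of separate loci. The 10 genes were chosen with earlier results of these data known, so the ranks are descriptive and no test. A longer window can hold more peaks, so the number was also divided by window length. PIM1 reached 95 peaks per Mb (45.6 to 175) and CCND3 83.6 per Mb (49.5 to 132), compared with 3.58 per Mb over the assembled chromosomes. By density 60 protein-coding genes were at or above PIM1 and 107 at or above CCND3. The windows of the remaining 8 genes together held 6 peaks, or 5.11 per Mb (1.87 to 11.1), an interval that includes the value of the assembled chromosomes. That value also covers sequence far from genes, while the median window of a protein-coding gene held 0 peaks. The intervals of PIM1 and CCND3 overlap, so their order in density is not resolved.

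**Figure D1:**
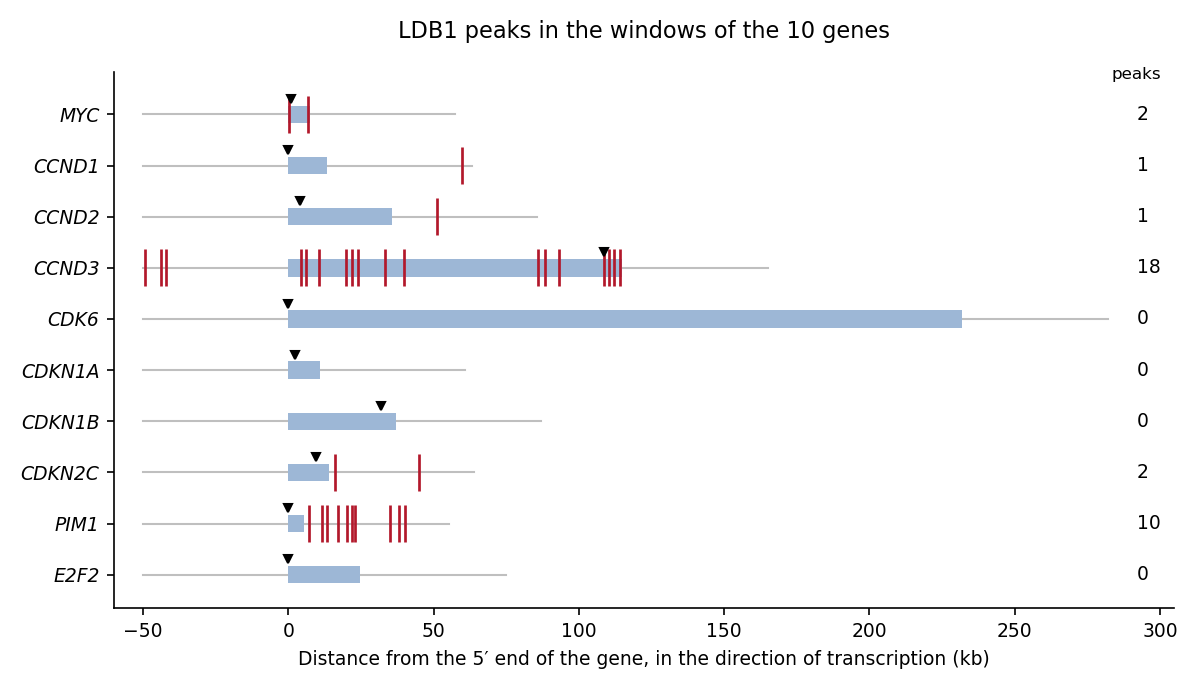
Position of the LDB1 peaks in the window of each of the 10 genes. The horizontal axis is the distance from the 5′ end of the gene in kb, in the direction of transcription; blue bars are gene bodies, grey lines the windows of 50 kb to either side, red lines the peak midpoints, black triangles the canonical start sites, and the numbers at the right the peaks per gene. The 18 peaks of CCND3 lie upstream of and within the gene, and the 10 peaks of PIM1 all lie downstream of it.

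**Figure D2:**
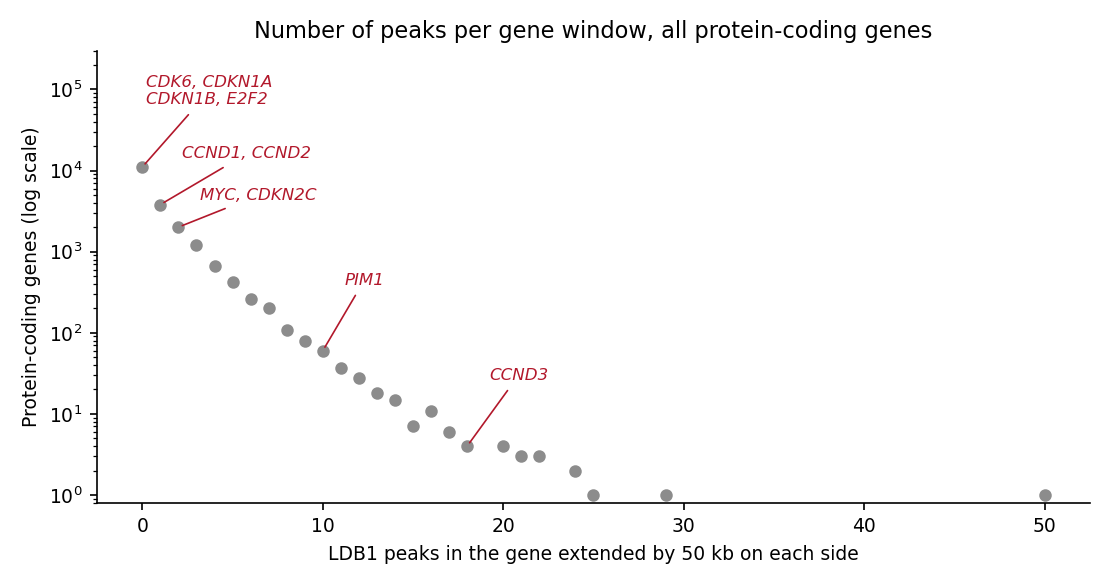
Number of protein-coding genes (vertical axis, log scale) by the number of LDB1 peaks in the gene extended by 50 kb on each side (horizontal axis). Each point is a number of peaks, and the 10 genes are named at theirs; 11060 genes had no peak, 60 had 10 as PIM1 did, and 4 had 18 as CCND3 did.

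CCND3 encodes cyclin D3, a D-type cyclin that serves blood cell precursors. The gene lies on the minus strand of chromosome 6 (ENSG00000112576.13, 41934934 to 42050357). Of its 23 annotated transcripts 16 start at an upstream group of start sites, between 42048534 and 42050357, and the remaining 7 start further on in the gene. The canonical start site, one of these, is 107 kb from the closest of the upstream group. Of the 18 peaks 15 lay within the gene body and 3 upstream of it, and none was downstream. Split wherever neighbouring peaks were more than 10 kb apart, they fell into 4 runs, which are described in the direction of transcription.

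The first run held 3 peaks at 42091705 to 42099908, upstream of every CCND3 start site and within the gene C6orf132. They were 374, 425 and 1396 bp long, and the longest of them held a GATA motif at its centre. The nearest protein-coding start site was that of C6orf132 for 1 peak and of TAF8, a subunit of the general transcription factor TFIID, for 2 peaks. A gap of 45.7 kb separated this run from the next.

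The second run was the largest, with 8 peaks over 35.8 kb (42010182 to 42046005), all in intron 1 of the longest transcript. That intron is 109 kb long and held 12 of the 18 peaks. The lengths ranged from 250 to 1868 bp around a median of 540.0 bp. The 1868 bp peak (42029534 to 42031401), longer than 98.3% of all peaks, overlapped 2 exons of the lncRNA gene ENSG00000223946. The neighbouring peak of 1025 bp, 485 bp away, carried the composite element shown above, outside its central 200 bp. No peak overlapped an upstream start site of CCND3, the nearest midpoint being 2686 bp away. A gap of 45.5 kb followed.

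The third run held 3 peaks of 406, 563 and 704 bp at 41956996 to 41964712, still in intron 1 and 15.5 to 22.6 kb before the canonical start site. Their GC content at the centre, 45.5 to 48.5%, was below that of the second run, 56.5 to 64.5%. The lowest value was that of the 563 bp peak, whose central 200 bp is a TG-rich simple repeat. The last of the 3 peaks had 4 GATA motifs over its length, 3 of which fell in the central 200 bp.

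The fourth run held 4 peaks within 6.36 kb, over the short canonical form of the gene. A peak of 755 bp (41941405 to 41942159) covered the canonical start site at 41941808, with its midpoint 26 bp from it in the 5′ UTR of exon 1. Peaks of 1344 and 815 bp were centred in intron 2, and 1 of 911 bp in intron 4 that reached exons 4 and 5. Thus all 4 were longer than the median peak of the list, 451 bp. The peak over the canonical start site was the most GC-rich of the 34, at 78.5%. It held no GATA, E-box or RUNX motif in its centre, whereas both peaks in intron 2 held GATA motifs. These intron 2 peaks also lay near start sites, with midpoints 586 and 45 bp from those of other CCND3 transcripts.

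CCND3 was the only one of the 10 genes with a peak over its canonical start site, compared with 1.59% of protein-coding genes. For 15 of its 18 peaks the nearest protein-coding start site was its own. Its window also reaches USP49, MED20, BYSL, TAF8 and C6orf132, whose own windows of 50 kb, overlapping that of CCND3, held 6, 7, 7, 12 and 7 peaks. Position alone therefore does not assign the peaks to CCND3.

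PIM1 (ENSG00000137193.14, chromosome 6, 37170152 to 37175428, plus strand) showed a different layout. No peak lay in the gene or over its start site, and all 10 lay downstream in intergenic sequence. They spanned 33.4 kb, from 37177220 to 37210602, with midpoints 7.27 to 40.3 kb after the start site. The first 7 peaks made a run of 16.3 kb with no gap above 3.88 kb, and the last 3 followed after 11.7 kb. In order the lengths of the first run were 412, 439, 1226, 748, 635, 952 and 668 bp, and those of the second were 244, 489 and 248 bp. The 2 shortest peaks at the gene were thus in the second run. All 7 peaks of the first run had PIM1 as the nearest protein-coding start site, while the 3 of the second were nearer to TMEM217. The window of 50 kb of TMEM217 overlaps that of PIM1 and held 13 peaks, or 89.1 per Mb. Position alone therefore does not assign the peaks to PIM1 either. The central 31 bases of the seventh peak have 788 copies in hg38. In windows extended to 100 kb PIM1 had 17 peaks and CCND3 19.

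**Figure D3:**
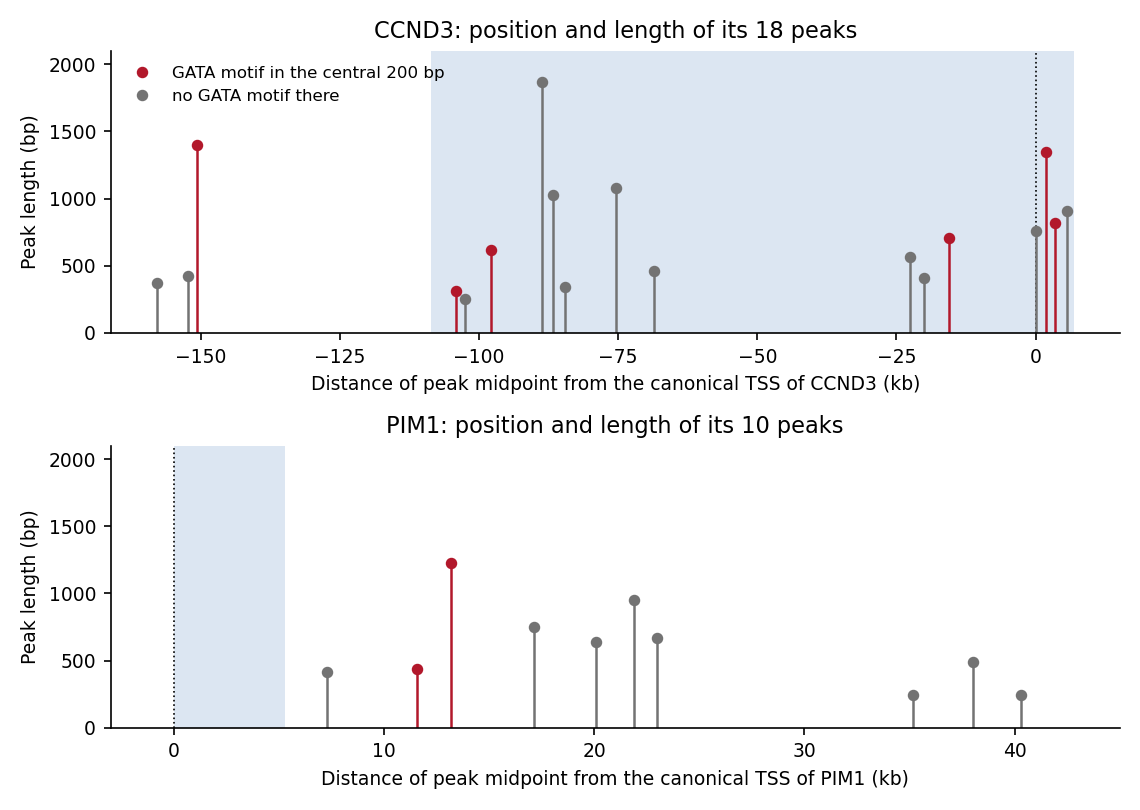
Length of each LDB1 peak in bp (vertical axis) against the distance of its midpoint from the canonical start site in kb (horizontal axis), for CCND3 (upper panel, 18 peaks) and PIM1 (lower panel, 10 peaks). Shading marks the gene body, the dotted line the start site, and red points the peaks with a GATA motif in the central 200 bp. The longest peak at CCND3 has 1868 bp and the longest at PIM1 1226 bp; 6 peaks of CCND3 and 2 of PIM1 are red.

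MYC, the transcription factor that drives growth and entry into the cycle, had 2 peaks, both within the gene (ENSG00000136997.22, chromosome 8, 127735434 to 127742951). The first, of 665 bp (127735184 to 127735848), covered the 5′ end of the gene. Its midpoint was 3 bp from the start of an annotated transcript and 0.715 kb before the canonical start site, which it did not reach. The second, of 522 bp (127741891 to 127742412), lay over exon 3, the last exon, in the 3′ UTR. Both held GATA motifs at the centre, with 3 and 5 over their lengths. At 18.6 peaks per Mb (2.25 to 67.2), MYC had a higher density than 85.1% of protein-coding genes, and windows of 3 or 10 kb held the same number. With only 2 peaks, its interval includes the 3.58 per Mb of the assembled chromosomes. By number, 5167 of 20033 protein-coding genes had at least as many peaks, and CDKN2C, also with 2, ranked above 83.4% by density. MYC and CCND3 were the genes with a peak in the body, 2 of 10, compared with 16.5% of protein-coding genes.

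CCND1 and CCND2, the other D-type cyclins, had 1 peak each, and neither was nearest to its cyclin. The peak of CCND1 (chr11:69700608-69700972, 365 bp) lay 46.1 kb beyond the gene, in intron 2 of the growth factor gene FGF19. That of CCND2 (chr12:4320852-4321395, 544 bp) lay 15.5 kb beyond the gene and covered the start site of TIGAR, which encodes a fructose bisphosphatase. Neither centre held a GATA motif. With windows of 10 kb or less, no peak was left at either gene, while CCND3 kept 15.

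CDK6, the kinase that D-type cyclins activate, had no peak in a window of 332 kb, the longest of the 10. A count of 0 there allows up to 11.1 peaks per Mb. The nearest peak lay 168 kb upstream of the gene (chr7:93004837-93005231, 395 bp), carried both a GATA motif and the composite, and was nearest to the start site of SAMD9.

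Among the inhibitors, CDKN2C had 2 peaks and CDKN1A and CDKN1B had none. The first peak of CDKN2C (chr1:50976680-50977150, 471 bp) lay 2.04 kb beyond the gene and 6.67 kb after the canonical start site. It was intergenic, had CDKN2C as the nearest protein-coding start site, and held a GATA motif at the centre. For CDKN1A, a target of p53, the nearest peak lay 97.8 kb upstream, closest to SRSF3. For CDKN1B it lay 84.9 kb downstream, closest to DDX47. The windows of these inhibitors were short, 111 and 137 kb, so that 0 peaks allow up to 33.3 and 27.0 per Mb.

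E2F2, an activator of S phase genes that RB holds in check, had no peak in its window, and the nearest lay 88.6 kb downstream, closest to TCEA3. Its RefSeq promoter (250 bases before to 50 after the start) held 3 E2F motifs (TTTNNCGC, either strand), and 6.9% of 27305 RefSeq promoters held at least 1. RefSeq promoters were matched for 7 of the 10 genes, namely CCND3, CDK6, CDKN1A, CDKN1B, CDKN2C, PIM1 and E2F2. None of the 7 held a GATA motif, which 25.5% of all promoters held. None overlapped a peak either, but peaks cover the canonical start site of only 1.59% of protein-coding genes. The lack of overlap therefore does not set these promoters apart. For CCND3 the promoter matched was that of an upstream start site and not the one under the peak.

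Next, the sequence at the peak centres was compared with that of the remaining peaks. The GATA motif was found in 12 of 34 central windows (35.3%, 21.5 to 52.1%), compared with 47.1% of the other 11012 peaks. In windows 1000 bp to either side of the 34 peaks it was found in 20.6%. By gene, GATA motifs were found in 6 of 18 peaks of CCND3, 2 of 10 of PIM1, both of MYC and both of CDKN2C. At CCND3 the peaks had it in 33.3% (16.3 to 56.3%) and the flanks in 11.1%. At PIM1 the peaks had it in 20% (5.67 to 51.0%) and the flanks in 40%, which is within the interval of the peaks. A peak overlapped 11.8% of all these flanks, 13.9% of those of CCND3 and 15% of those of PIM1. The composite was found in 1 of 34 central windows (2.94%, 0.521 to 14.9%) and 11.2% of all peaks. Flanks of the 34 peaks had it as often, in 2.94%, and those of all peaks in 1.62%. At CCND3 it was in 0 of 18 centres and 2.78% of the flanks. Over the whole length of the peaks the GATA share was 58.8% against 71.4% for all peaks, and the composite share 5.88% against 22.4%. The intervals of both central shares include the values of all peaks, and so does that of the GATA share over whole peaks (42.2 to 73.6%). The interval of the composite share over whole peaks (1.63 to 19.1%, 2 of 34) lies below 22.4%. It takes the 34 peaks as independent, although 28 of them lay at CCND3 and PIM1, so it may be too narrow. Since dense regions may differ from isolated peaks, the 1637 peaks in the windows of the other 199 genes with at least as many peaks as PIM1 were also counted. Of these 35.9% held a GATA motif and 7.15% the composite, compared with 47.1 and 11.2% in the full list. These are shares of central windows, and motifs over whole peaks were not counted for the dense windows.

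For each other motif the interval of the share in the 34 centres included the share of the remaining peaks. The E-box CAGNTG, read by TAL1 and related factors, was found in 50% of the 34 centres and 51.5% of the others. The flanks of the 34 peaks had it in 30.9%. The RUNX motif was found in 52.9% (36.7 to 68.5%) and 43.4%, but the flanks of the 34 peaks had it as often, in 52.9%. At PIM1 it was found in 8 of 10 centres (49.0 to 94.3%) and in 50% of the flanks, and at CCND3 in 8 of 18 centres and 63.9% of the flanks. The KLF motif (CCNCNCCC) was found in 41.2% and 32.0%, and in 27.9% of the flanks of the 34 peaks. Of the 14 peaks that held it 10 were at CCND3. That is 55.6% of the CCND3 centres (33.7 to 75.4%), an interval above 32.0%, and 33.3% of the flanks there held it. The CCND3 interval includes the 34.6% found in the 1637 peaks of other dense windows. For RUNX, the PIM1 interval lies above 43.4% and the 43.1% of dense windows, but includes the 50% of its flanks. Several motifs were compared by gene, and both intervals take neighbouring peaks as independent. GC content at the centre had a median of 56.2% at the 34 peaks and 51.5% at the others, with 57.8% at CCND3, 49.5% at PIM1 and 51.5% at the other 4 genes. ETS (GGAAGT) was found in 14.7 and 13.5%, and AP-1 (TGANTCA) in 8.82 and 12%. The motif of CEBP (TTGCNNAA) and that of E2F were found in none of the 34 centres, where 0 allows up to 10.2%, and in 7.49 and 1.7% of the others. The E-box that MYC binds (CACGTG, which is not an instance of CAGNTG) was found in 1, the eighth peak of PIM1.

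**Figure D4:**
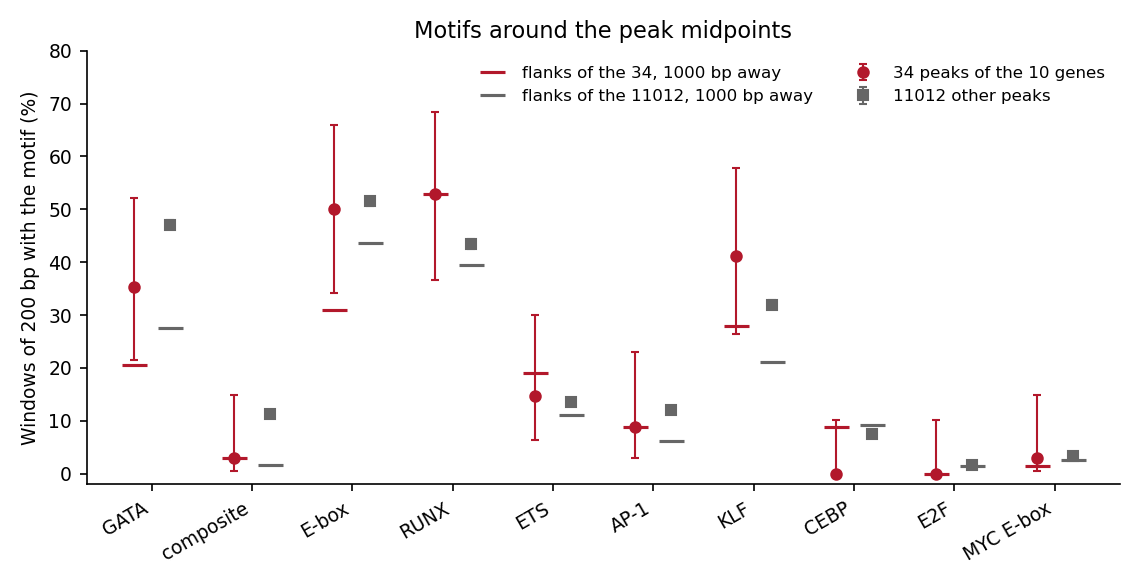
Share of 200 bp windows with each motif in % (vertical axis) for the 34 peaks of the 10 genes (red circles) and the 11012 other peaks (grey squares), with Wilson 95% intervals; horizontal dashes are the windows 1000 bp to either side. The red GATA point is at 35.3% and the grey one at 47.1%, inside the red interval, and the red RUNX point lies on its own flank value of 52.9%.

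The 34 peaks were longer than the list as a whole in the middle of their range. Their median was 586.0 bp (quartiles 415 and 800 bp), compared with 451 bp (314 and 666 bp) for all peaks, and 23 of 34 (67.6%, 50.8 to 80.9%) were longer than the median of the list. That interval takes the 34 peaks as independent, although 28 of them lay at CCND3 and PIM1, so it may be too narrow. At CCND3 the median was 660.0 bp, at PIM1 562.0 bp and at the remaining genes 533.0 bp. In the 1637 peaks of other dense windows it was 473.0 bp. Peaks covered 6.34% of the window of CCND3, 5.76% of that of PIM1 and 1.1% of that of MYC. Within 3 kb of a start site of any gene lay 10 of the 34 peaks (29.4%, 16.8 to 46.2%), compared with 35.6% of all peaks. Of these 10, CCND3 had 8, MYC 1 and CCND2 1, the last at TIGAR. For 26 of 34 peaks (76.5%, 60 to 87.6%) the nearest protein-coding start site was that of the gene itself.

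Finally, other genes of the same pathway were counted in the same windows. Of 48 such genes 23 had a peak (47.9%, 34.5 to 61.7%), close to the 44.8% of all protein-coding genes. Both other PIM kinases had peaks, PIM2 with 5 and PIM3 with 3. In the E2F and RB family 5 of 12 had a peak, led by E2F3 with 6, and RB1 had none. Of the genes of the MYC network 6 of 10 had a peak, with 3 each at MAX, the partner of MYC, and MLX. Among other cyclins and kinases 3 of 10 had a peak, with 2 each at CCNA2 and CCNB3 and none at CDK4, the close relative of CDK6. Among other inhibitors 2 of 4 had a peak, led by CDKN2D with 2, and CDKN2A and CDKN2B had none. Among CDC25 phosphatases and checkpoint kinases it was 5 of 10, with 3 each at AURKA, PKMYT1 and WEE1. None of the 48 had as many peaks as PIM1 or CCND3. Only 1.00 and 0.0948% of all protein-coding genes had as many, so this does not set the 48 genes apart.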

How the data were processed

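CUT&Tag libraries of NB4 cells were made by the authors with LDB1 antibody or IgG, 1 each, and aligned to hg38 with Bowtie2 2.4.4. Peaks were called with MACS3 3.0 from paired-end fragments under a q-value limit. Whether IgG served as control, and whether duplicates were removed, is not given in the sources used here. Overexpression of LDB1 is given for the antibody library by the labels, but not by the methods of the CUT&Tag. The authors deposited for each peak a start, an end and a length in bp, counted from 1, and neither score nor summit, so the midpoint stood for the summit.

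Overlaps were counted with GENCODE release 44. Motifs were consensus letters on both strands of 200 bp. Shares carry Wilson and counts exact Poisson 95% intervals. Copies of the central 31 bases were counted in hg38. Promoters came from RefSeq (hg38). The 10 genes, the gene lists and the named-gene rule (all 10 genes with each peak, and the top gene of each list, here with those tied with it) were chosen with earlier results of these data known. Counting was tested on simulated data. Scripts ran in Python 3.11.15 with pandas 2.3.3, numpy 2.4.6, matplotlib 3.10.9 and SciPy 1.17.1. The second peak of CDKN2C is counted but not described here.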

Additional observations from a re-analysis of the deposited data

How the results depend on the processing

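No paired analysis was possible because the LDB1 and IgG groups each consist of 1 library. Of 72 values over 7 results, 20 moved. With the gene body alone, 2 genes and 17 peaks remained, the composite share was 0.0%, the share near a start site 52.9% and the share nearest to the gene's own start site 100%. With 3 kb around the gene there were 19 peaks at 4 genes, and these shares were 0.0, 47.4 and 100%. With 10 kb there were 21 peaks at 4 genes, 0.0% with the composite and 100% nearest to the own site. In windows of 3 and 10 kb 19.7 and 25.1% of all protein-coding genes had a peak. Smaller windows lose the peaks farther away by construction. Without the 2 peaks whose central sequence is repeated, the composite share was 0.0%. The GATA share was 17.6% in windows of 100 bp and 58.8% over the whole peak. Alternatives chosen after seeing the data left out the densest genes. Without CCND3 there were 16 peaks, 12.5% near a start site. Without CCND3 and PIM1 there were 6 peaks, with GATA motifs in 66.7% and the composite in 16.7%. Windows of 100 kb (48 peaks at 9 genes) and the peaks longer than the median alone moved no count by over 1.5 times. They moved no share or median beyond its interval, and merging close peaks gave 28 peaks. At 100 kb 58.3% of all protein-coding genes had a peak, and CDKN1A, CDKN1B and E2F2 had 2, 1 and 1. The list has no heights and no replicate, so a gene without a peak may carry signal under the peak caller's limit.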
